A study of Mus musculus with 6 samples.

Results

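The enzymes that remove superoxide and peroxides were followed in mouse hepatocytes, the parenchymal cells of liver. They were 10 genes of the 48353 in the deposited files, found by their symbols: the superoxide dismutases Sod1 and Sod2, the catalase gene Cat, the glutathione peroxidases Gpx1 and Gpx4 and the peroxiredoxins Prdx1, Prdx2, Prdx3, Prdx5 and Prdx6. Polyadenylated RNA came from 3 libraries of Bim knock-out hepatocytes and 3 libraries of wild-type hepatocytes, all labelled C57BL/6 and isolated by collagenase perfusion. In the knock-out a floxed Bim gene (symbol Bcl2l11, which encodes the pro-apoptotic protein BIM) was deleted by Alb-Cre, a recombinase driven by the albumin promoter, so that deletion is directed at hepatocytes. The protocol speaks of male mice on chow with 20% protein and 6% fat, or on a high-fat diet begun at 8 to 10 weeks of age and kept for 14 to 20 weeks. The diet and age of each sample are not given in the labels, nor is whether the wild-type mice carried the floxed gene or Alb-Cre. Whether each sample is a separate animal is not stated, so p-values reflect the spread among these libraries alone, and that spread may be technical.

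Superoxide is formed by the respiratory chain and by oxidases, and superoxide dismutases turn it into hydrogen peroxide. Catalase, glutathione peroxidases and peroxiredoxins then remove the hydrogen peroxide, and glutathione peroxidases and peroxiredoxins also reduce lipid and other organic peroxides. The liver holds much catalase in its peroxisomes, and thioredoxin, thioredoxin reductase and sulfiredoxin keep peroxiredoxins in working order.

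None of the 10 genes passed the test for a difference by genotype (0 of 10 by limma on log2(RPKM + 1), with p-values Benjamini-Hochberg adjusted over 11021 genes, and 0 of 10 with voom weights). Over all genes 0.789% passed, 0.372% higher and 0.417% lower in knock-out. The smallest unadjusted p among the 10 was 0.163, and 0 of 10 lay below 0.05, where 1.89% of all genes did. Among the 5538 tested genes above 0 in all libraries 0 passed. On estimated reads 0 of the 10 enzyme genes passed as well, beside 0.844% of all genes, and without wild-type replicate 1 again 0 of 10, beside 2.09%. Of the 10, 7 had reads in every library and 3 (Gpx4, Prdx2 and Prdx6) were listed at 0 in at least 1 library. Of the 7, Sod2, Prdx1 and Prdx5 stood high and Gpx1 and Prdx3 low in wild-type replicate 1, while Sod1 and Cat lay among the other libraries there. In the other 5 libraries the coefficient of variation of the 7 genes was 2.6% to 14.1% over both genotypes.

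The libraries held 25335211 to 31130519 estimated reads, and 10486 to 11255 genes per library were above 0. Bcl2l11 was at 0 in all 3 knock-out libraries and had 0, 680 and 478 reads in wild-type replicates 1, 2 and 3, so this gene does not check the label of wild-type replicate 1. An exact 0 at a locus with several transcripts may be an estimate that was not made. Hepatocyte markers were present, with a summed 30949 to 62357 RPM (estimated reads per 1000000 of the library's estimated reads) over 12 genes, although Tat and Pck1 were listed at 0 in all libraries. Wild-type replicate 1 stood apart in macrophage and Kupffer cell markers: the 11 markers summed to 5118 RPM there, against 85.6 to 181.7 in the other 5 libraries. All 11 were above 0 there, and Adgre1, Clec4f, Vsig4 and C1qc were listed at 0 in the other 5 libraries. The hepatocyte sum, most of it Alb, was 30949 RPM in wild-type replicate 1 and 31867 RPM in wild-type replicate 3, and Alb itself was lowest in wild-type replicate 3, at 22306 RPM, with 24895 RPM in wild-type replicate 1. Of the 8 hepatocyte markers above 0 in all libraries, most were low in wild-type replicate 1 against the median of the other 5 libraries. Ahsg was at 0.29, Cps1 at 0.5, Apoa1 at 0.51, Ttr at 0.55, Apob at 0.57 and Alb at 0.73 times that median. Serpina1c was at 1.11 times and Arg1, with only 56 to 114 reads per library, at 1.24 times. Tdo2 had 492.8 RPM there and 0 to 160.6 RPM elsewhere. Hnf4a had 67.4 RPM there, 0 in knock-out replicate 3 and 171.6 to 289.4 RPM in the others. Red cell markers matter here because red cells are rich in Prdx2 and catalase. Of 8 red cell markers, 7, the haemoglobin genes among them, were listed at 0 in every library, and Alas2 had 0 to 212 reads. Markers of neutrophils were at 0 (7 of 7 genes in all libraries). Those of stellate cells and lymphocytes summed to at most 0.1 and 0.2 RPM. Biliary markers summed to 26.4 to 562 RPM. Most of that sum was Spp1, except in knock-out replicate 1, where Spp1 was listed at 0 and Sox9 had 25.9 RPM. Krt7 and Krt19 were listed at 0 in every library, and Epcam had 4 to 20 reads. Endothelial markers summed to 112.8 RPM in wild-type replicate 1 and to 0.3 to 0.6 RPM in the others. Cdh5 (76.2 RPM) and Stab2 (35.2 RPM) made up most of the 112.8 and were listed at 0 in the others. Pecam1, Kdr, Clec4g and Lyve1 were listed at 0 in every library, wild-type replicate 1 among them. In bulk RNA, fewer cells of a type and less RNA per cell cannot be told apart.

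Each gene was measured in 2 ways that behaved differently. RPM, the estimated reads summed over a gene's transcripts and scaled in that way, do not depend on which of that gene's transcripts a read was assigned to. RPKM, which is scaled to transcript length and to another library total, does. For that reason values are given in RPM unless RPKM is named, and RPKM is used to compare levels between genes.

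On the RPKM scale the levels spanned a wide range. Prdx1 was the most abundant, with a median of 3148 RPKM and a range of 1951 to 8427. Gpx1 (median 1088, range 581 to 1433), Cat (867, range 549 to 1030) and Prdx6 (730.3 over its 5 libraries above 0, range 376 to 882) had ranges that overlapped, as did Gpx4 (722 over 4 libraries, range 636 to 811). Their order was therefore not settled by these libraries. Sod1 followed at a median of 354 RPKM (340.1 to 387), then Prdx5 at 270.1 (245 to 439), which exceeded Sod1 only in wild-type replicate 1. Prdx2 had a median of 226 RPKM over 5 libraries (173 to 347) and overlapped Prdx5. Prdx3 at 137 RPKM (85.5 to 140.04) lay below every nonzero value of Prdx2, and Sod2 was the lowest at 33.2 RPKM (30.8 to 61.6). Together the 10 genes took 0.533%, 0.633% and 0.697% of the reads in knock-out replicates 1 to 3 and 0.857%, 0.57% and 0.607% in wild-type replicates 1 to 3. Prdx1 alone made up 43.3% to 45.1% of the reads of the 10 in the knock-out libraries and 63.3%, 41.5% and 50.9% in the wild-type libraries.

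**Figure D1:**
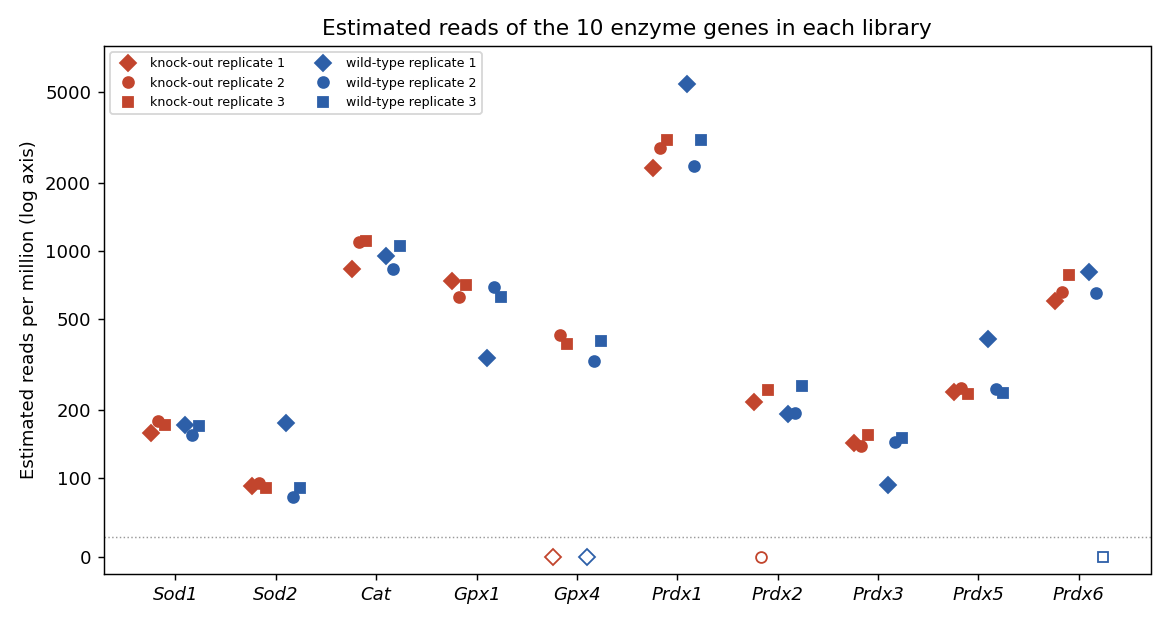
Estimated reads in RPM (log axis, with values of 0 drawn as open symbols below the dotted line) of the 10 enzyme genes, knock-out libraries left of wild-type libraries, 1 symbol per library. Wild-type replicate 1 (blue diamond) lies above the other libraries for Sod2, Prdx1 and Prdx5 and below them for Gpx1 and Prdx3, and 4 values are at 0.

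The start regions of 3 genes are shown because Prdx1 and Sod2 were both high in wild-type replicate 1 while Sod1 was not. The windows are from RefSeq (GRCm38.p6, 250 bases before to 50 after a start site, in the direction of the gene), where 9 of the 10 genes had an entry. Prdx1 is at chr4:116685349-116685648, Sod1 at chr16:90220512-90220811 and Sod2 at chr17:13007589-13007888, all on the plus strand. Capitals mark the core of the antioxidant response element, the site bound by the transcription factor NRF2, searched as TGACNNNGC on both strands.
Prdx1: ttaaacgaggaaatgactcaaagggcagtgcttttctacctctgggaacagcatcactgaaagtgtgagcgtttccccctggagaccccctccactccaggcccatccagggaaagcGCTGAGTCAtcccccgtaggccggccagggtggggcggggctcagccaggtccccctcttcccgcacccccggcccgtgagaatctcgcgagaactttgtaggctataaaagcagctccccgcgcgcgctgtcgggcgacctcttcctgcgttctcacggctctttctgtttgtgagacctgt
Sod1: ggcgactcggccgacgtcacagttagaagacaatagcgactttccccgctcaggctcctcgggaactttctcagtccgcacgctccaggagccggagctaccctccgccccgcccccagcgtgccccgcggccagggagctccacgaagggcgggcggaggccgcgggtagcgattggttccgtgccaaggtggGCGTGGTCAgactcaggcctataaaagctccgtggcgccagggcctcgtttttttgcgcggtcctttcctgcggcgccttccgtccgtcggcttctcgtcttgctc
Sod2: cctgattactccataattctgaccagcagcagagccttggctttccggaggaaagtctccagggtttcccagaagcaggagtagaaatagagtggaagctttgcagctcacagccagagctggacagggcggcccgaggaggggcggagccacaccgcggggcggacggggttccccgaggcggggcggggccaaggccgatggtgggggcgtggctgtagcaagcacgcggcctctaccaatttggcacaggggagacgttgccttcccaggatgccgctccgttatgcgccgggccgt
The core was found in the Prdx1 window at bases 118 to 126 and in the Sod1 window at bases 195 to 203, counted from the first base shown, both on the minus strand, and in no other window of the 9 genes. Of all 32851 windows of the same length 12.4% hold it. The AP-1 motif TGANTCA was found in the Prdx1 window only, at bases 14 to 20 and at bases 120 to 126, where it overlaps the antioxidant response element core. Of all windows 7.81% hold the AP-1 motif. A match of letters is a description and does not show that a factor was bound, and no match says only that these letters are not in the window.

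Sod1, the cytosolic copper-zinc superoxide dismutase (ENSMUSG00000022982, chromosome 16, 90220742 to 90226322, plus strand, 1 annotated transcript), was the steadiest of the set when all 6 libraries are counted. It had 159, 179 and 172 RPM in the knock-out libraries and 172, 155 and 169 in the wild-type libraries. The groups overlapped, and wild-type replicate 1 lay among the rest. Sod1 averaged 169.8 ± 10.3 RPM in the knock-out libraries, against 165 ± 9.3 RPM in the wild-type ones (SD, n = 3 each). The difference on the log2(RPM + 1) scale was 0.04 (SE 0.09, 95% interval -0.18 to 0.26, limma adjusted p = 1.0).

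Sod2, the mitochondrial manganese superoxide dismutase (ENSMUSG00000006818, chromosome 17, 13007839 to 13018119, plus strand, 1 transcript), had 92.6, 95.7 and 90.6 RPM in the knock-out libraries and 175, 82.9 and 90.8 in the wild-type libraries. A single library, wild-type replicate 1, was high, at 1.92 times the median of the other 5, which lay between 82.9 and 95.7. Sod2 averaged 93.0 ± 2.57 RPM in the knock-out libraries, against 116 ± 50.8 RPM in the wild-type ones (SD, n = 3 each). The difference was -0.24 (SE 0.31, interval -1.04 to 0.57, limma adjusted p = 0.954). Without wild-type replicate 1 it was 0.10 (SE 0.07, interval -0.10 to 0.29, limma adjusted p = 1.0). Macrophage markers were high in the same library, and their part in the Sod2 value was not tested.

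Cat, the peroxisomal catalase (ENSMUSG00000027187, chromosome 2, 103453849 to 103485160, minus strand, 2 transcripts), had 838, 1099 and 1109 RPM in the knock-out libraries and 953, 833 and 1048 in the wild-type libraries. The groups overlapped over nearly their whole range, and no library stood out. Cat averaged 1015 ± 154 RPM in the knock-out libraries, against 945 ± 108 RPM in the wild-type ones (SD, n = 3 each), with a difference of 0.10 on the log2 scale (SE 0.15, interval -0.29 to 0.49, limma adjusted p = 0.971). Its RPKM spread more widely, from 549 in wild-type replicate 3 to 1030 in wild-type replicate 2. In wild-type replicate 3 all Cat reads were assigned to the 2613-base transcript Cat-201, whereas in wild-type replicate 2 54.1% went to Cat-202, which is 779 bases long. The coefficient of variation over the 5 libraries other than wild-type replicate 1 was 14.1% for the RPM of Cat and 22.3% for its RPKM.

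Gpx1, the main glutathione peroxidase of liver and a selenoprotein (ENSMUSG00000063856, chromosome 9, 108338903 to 108340343, plus strand, 4 transcripts), had 735, 628 and 711 RPM in the knock-out libraries and 339, 698 and 630.2 in the wild-type libraries. Here wild-type replicate 1 was low, at 0.49 times the median of the other 5. Gpx1 averaged 691 ± 55.9 RPM in the knock-out libraries, against 556 ± 191 RPM in the wild-type ones (SD, n = 3 each), a difference of 0.38 (SE 0.30, interval -0.40 to 1.16, limma adjusted p = 0.954). Without wild-type replicate 1 the difference of Gpx1 was 0.06 (SE 0.10, interval -0.23 to 0.34, limma adjusted p = 1.0). Which transcript took the reads changed from library to library. In the knock-out libraries all Gpx1 reads went to Gpx1-201 (1072 bases) in replicate 1, to Gpx1-202 (787 bases) in replicate 2 and to Gpx1-204 (653 bases) in replicate 3. Gpx1-202 took 100%, 80.2% and 88.1% in wild-type replicates 1 to 3.

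Gpx4, which reduces lipid peroxides within membranes and is likewise a selenoprotein (ENSMUSG00000075706, chromosome 10, 80047166 to 80056439, plus strand, 7 transcripts), had 0, 427 and 389 RPM in the knock-out libraries and 0, 329 and 401 in the wild-type libraries. Replicate 1 of each group was listed at 0, and the 4 other values lay close together. All Gpx4 reads were assigned to Gpx4-207, a coding transcript of 735 bases. With exact zeros at loci of 2 or more transcripts taken as missing, so that 2 libraries of each group entered, the difference of Gpx4 was 0.17 on the log2(RPM + 1) scale (interval -0.27 to 0.60, limma adjusted p = 1.0).

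Prdx1, the major cytosolic peroxiredoxin (ENSMUSG00000028691, chromosome 4, 116685544 to 116700822, plus strand, 6 transcripts), had 2311, 2854 and 3076 RPM in the knock-out libraries and 5425, 2364 and 3085 in the wild-type libraries. Apart from wild-type replicate 1, at 1.9 times the median of the others, the values of both groups covered the same range. Prdx1 averaged 2747 ± 393 RPM in the knock-out libraries, against 3625 ± 1600.1 RPM in the wild-type ones (SD, n = 3 each), a difference of -0.32 (SE 0.34, interval -1.20 to 0.56, limma adjusted p = 0.954). Without wild-type replicate 1 the difference of Prdx1 was 0.01 (SE 0.20, interval -0.55 to 0.58, limma adjusted p = 1.0). On the RPKM scale Prdx1 measured 3728, 2048 and 1951 in the knock-out libraries and 8427, 2568 and 4127 in the wild-type libraries. That difference was -0.86 (SE 0.53, limma adjusted p = 0.941) and was -0.40 without wild-type replicate 1. The reads of Prdx1 were assigned mostly to the 2294-base Prdx1-204 in knock-out replicates 2 and 3 (94.3% and 93.5%) but to the 877-base Prdx1-202 in knock-out replicate 1 (75.6%). In wild-type replicates 1 and 3, 31.2% and 27.2% went to Prdx1-206, annotated as a retained intron.

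Prdx2, a cytosolic peroxiredoxin that is abundant in red cells (ENSMUSG00000005161, chromosome 8, 84969587 to 84974834, plus strand, 8 transcripts), had 216, 0 and 245 RPM in the knock-out libraries and 192, 193 and 253 in the wild-type libraries. Knock-out replicate 2 was listed at 0, and the 5 other values overlapped between the groups. With that 0 taken as missing the difference of Prdx2 was 0.12 (interval -0.30 to 0.55, limma adjusted p = 1.0). The reads moved among 7 of its 8 transcripts. In wild-type replicates 1 and 2 a single transcript took all of them, Prdx2-201 in replicate 1 and Prdx2-208 in replicate 2.

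Prdx3, the peroxiredoxin of the mitochondrial matrix (ENSMUSG00000024997, chromosome 19, 60864051 to 60874556, minus strand, 1 transcript), had 144, 138 and 156 RPM in the knock-out libraries and 93.7, 144 and 151 in the wild-type libraries. Wild-type replicate 1 was the lowest, at 0.65 times the median of the others. Prdx3 averaged 146 ± 9.01 RPM in the knock-out libraries, against 129.7 ± 31.4 RPM in the wild-type ones (SD, n = 3 each), a difference of 0.20 (SE 0.21, interval -0.35 to 0.74, limma adjusted p = 0.954). Without wild-type replicate 1 the difference of Prdx3 was -0.02 (SE 0.07, interval -0.23 to 0.19, limma adjusted p = 1.0). Sod2 and Prdx3, both mitochondrial, thus stood on opposite sides in wild-type replicate 1. Prdx5, which is found in mitochondria among other places, was high there like Sod2.

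Prdx5, a peroxiredoxin found in mitochondria, peroxisomes and the cytosol (ENSMUSG00000024953, chromosome 19, 6906697 to 6910106, minus strand, 4 transcripts), had 239, 249 and 235 RPM in the knock-out libraries and 411, 248 and 237 in the wild-type libraries. The 5 libraries other than wild-type replicate 1 differed by very little, with a coefficient of variation of 2.6%, and wild-type replicate 1 was at 1.72 times their median. Prdx5 averaged 241 ± 7.19 RPM in the knock-out libraries, against 299 ± 97.3 RPM in the wild-type ones (SD, n = 3 each), a difference of -0.26 (SE 0.23, interval -0.87 to 0.35, limma adjusted p = 0.954). Without wild-type replicate 1 the difference of Prdx5 was -0.01 (SE 0.05, interval -0.15 to 0.13, limma adjusted p = 1.0). That SE is from the fit over all tested genes, and with genes above 0 in all libraries only it was 0.12. All Prdx5 reads went to Prdx5-201 in every library.

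Prdx6, the peroxiredoxin with a single catalytic cysteine, which also acts as a phospholipase (ENSMUSG00000026701, chromosome 1, 161240112 to 161251219, minus strand, 9 transcripts), had 601, 658 and 783 RPM in the knock-out libraries and 811, 653 and 0 in the wild-type libraries. Wild-type replicate 3 was listed at 0, and the other values overlapped. With the 0 taken as missing the difference of Prdx6 was -0.10 (interval -0.54 to 0.33, limma adjusted p = 1.0). Most Prdx6 reads were assigned to Prdx6-208, annotated as subject to nonsense-mediated decay: 63.9%, 100% and 69.5% in knock-out replicates 1 to 3 and 100% in wild-type replicate 1. In wild-type replicate 2 they were split between Prdx6-202 (50.3%) and the retained-intron transcript Prdx6-209 (49.7%). Its RPKM was 376 in wild-type replicate 2 and 710 to 882 in the 4 other libraries with reads. The related copies named Prdx6b, Prdx6-ps2 and Prdx2-rs3 had 0 reads in all libraries, so how reads shared with them were counted cannot be seen in the files.

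**Figure D2:**
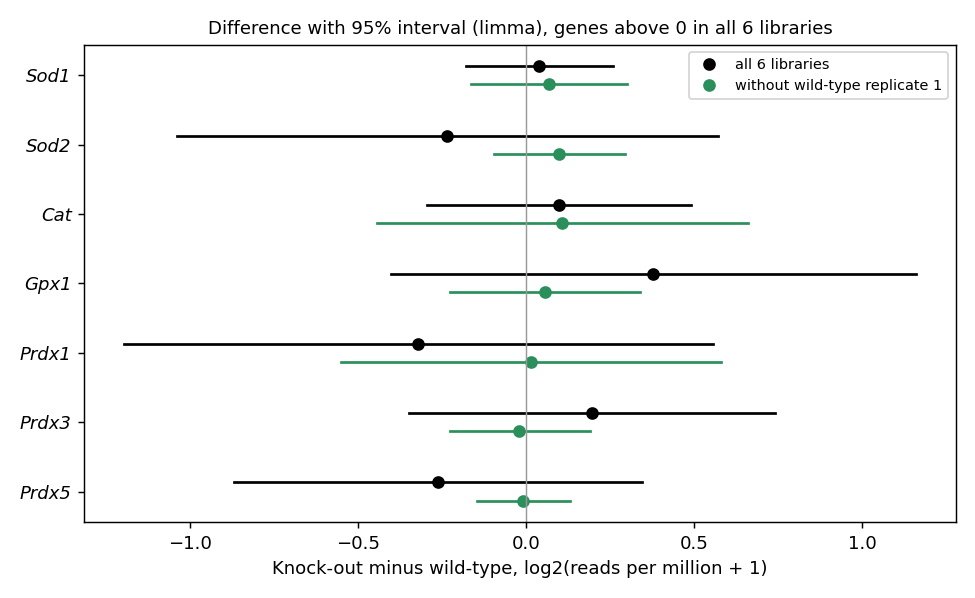
Knock-out minus wild-type difference on the log2(RPM + 1) scale with its 95% interval from limma, for the 7 genes above 0 in all libraries, with all 6 libraries (black) and without wild-type replicate 1 (green). The intervals are from the fits over all tested genes. Every interval spans 0, and without wild-type replicate 1 the intervals of Sod2, Gpx1, Prdx3 and Prdx5 are narrower, as is that of Prdx1, while those of Sod1 and Cat are wider.

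Over the 7 genes the median difference in RPM was 0.04 with all libraries and 0.06 without wild-type replicate 1, beside 0.01 and 0.04 over the 5538 tested genes above 0 in all libraries. Exact two-sided permutation tests of 3 against 3 libraries gave p between 0.3 and 0.9 for the RPM of the 7 genes. The smallest p that such a test can give is 0.1. None of the 7 had groups that did not overlap (0 of 7), against 3.81% of the 5538 genes, and likewise 0 of 7 in RPKM, against 5.94%. In the other 5 libraries the coefficient of variation of the RPM had a median of 5.9% over the 7 genes, where the median over all 5538 genes was 12.1%. These sets were not matched on level: the 7 genes had medians of 33.2 to 3148 RPKM, whereas the 5538 needed a mean of at least 1 RPKM. Whether the 7 were steadier than genes of like level was not tested.

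Against those 5 libraries, wild-type replicate 1 exceeded the highest by more than 1.5 times for 3 of the 7 genes (Sod2, Prdx1 and Prdx5), as it did for 5.33% of the 5538 genes. It lay below the lowest divided by 1.5 for 1 of the 7 (Gpx1), and for 4.28% of all. This rule was chosen after the values were seen and describes that library. Of the 6 genes of thioredoxin, glutaredoxin and glutathione recycling above 0 in all libraries, 1 (Srxn1) was high there by this rule and 0 were low. Srxn1, sulfiredoxin, which repairs overoxidised peroxiredoxins, had 885, 949 and 1595 RPM in the knock-out libraries and 2685, 1125 and 1332 in the wild-type libraries (named outside the rule, after its values were seen). Txnrd1, the cytosolic thioredoxin reductase, had 618, 617 and 878 in the knock-out libraries and 1247, 753 and 777 in the wild-type libraries, highest in wild-type replicate 1 but not past that rule. Txn1, thioredoxin itself, also named outside the rule, had 440.2, 389 and 506 in the knock-out libraries and 478, 387 and 484 in the wild-type libraries and did not stand apart in that library. Selenop, the plasma selenoprotein that hepatocytes secrete, was low there like Gpx1, with 2634, 1677 and 1925 in the knock-out libraries and 716, 2580.4 and 1953 in the wild-type libraries. Marco, a scavenger receptor of macrophages, had 71.7, 46.0 and 82.3 in the knock-out libraries and 2992, 60.1 and 83.0 in the wild-type libraries. How far macrophage RNA accounts for the enzyme values of that library was not tested.

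**Figure D3:**
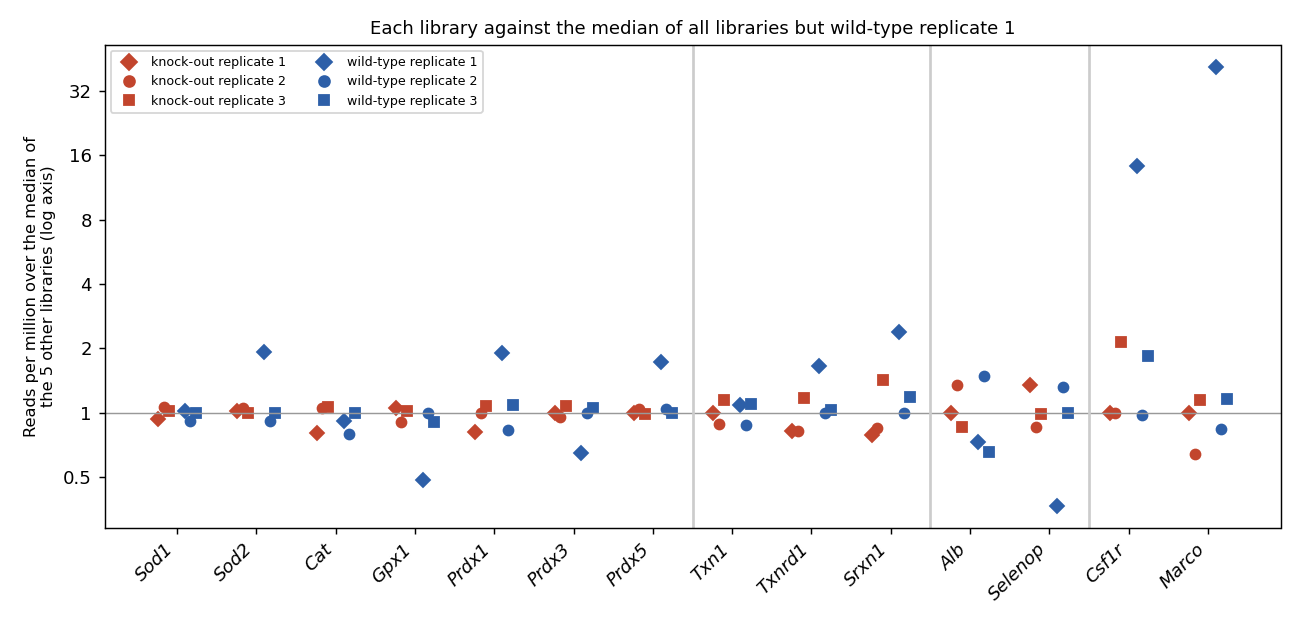
RPM of each library over the median of the 5 libraries other than wild-type replicate 1 (log axis), knock-out libraries left of wild-type libraries, for 7 enzyme genes, 3 genes of the thioredoxin system, 2 genes of hepatocyte secretion and 2 macrophage genes. Wild-type replicate 1 (blue diamond) is at 1.92 for Sod2, 1.9 for Prdx1 and 1.72 for Prdx5 and far higher for Csf1r and Marco, and it is at 0.49 for Gpx1 and 0.65 for Prdx3.

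The transcripts named by the files varied more than the reads. At the 3 enzyme loci with 1 transcript (Sod1, Sod2 and Prdx3) 0 of 18 library values were exact zeros. At the 7 loci with 2 or more, 4 of 42 were (9.52%), beside 18.02% over all loci of that kind with a median above 100 reads and 0.02% over loci with 1 transcript. Over the 5 libraries other than wild-type replicate 1 the coefficient of variation of Prdx1 was 13.8% in RPM and 34.3% in RPKM, and that of Gpx1 7.1% and 16.4%. For Sod1, Sod2, Prdx3 and Prdx5, whose reads went to 1 transcript throughout, it was 2.6% to 5.9% in RPM and 2.8% to 5.3% in RPKM.

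**Figure D4:**
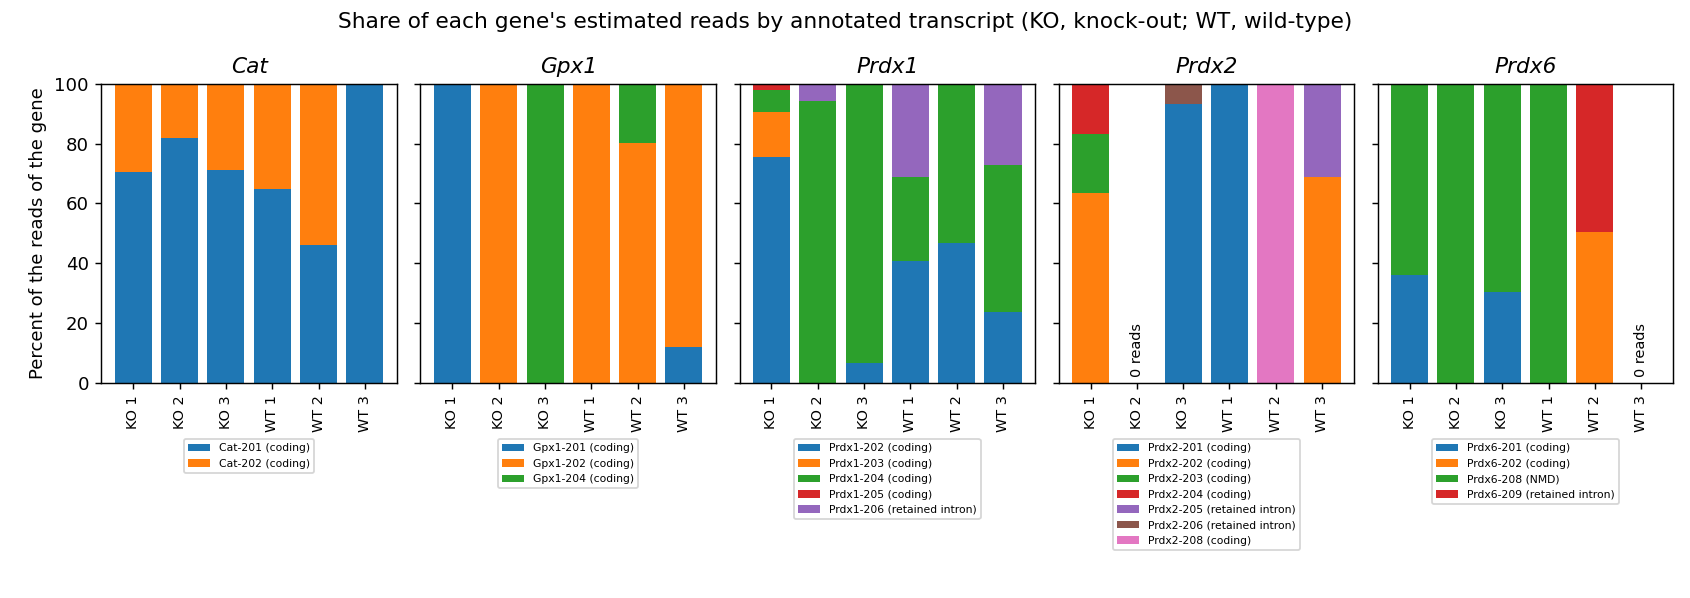
Percent of the estimated reads of Cat, Gpx1, Prdx1, Prdx2 and Prdx6 assigned to each annotated transcript (colours, with the annotated kind in brackets), by library, knock-out left of wild-type. The assignment of Gpx1 moves between whole transcripts among the knock-out libraries, and most Prdx6 reads fall on the transcript annotated for nonsense-mediated decay in 4 of the 5 libraries with reads.

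The neighbouring genes of the pathway were described by 5 lists, and none of their members passed the test over all genes (0 in each direction in each list, beside 0.789% over all genes). At an unadjusted limma p below 0.05 on RPKM there was 1 member, the oxidase Pipox, and 0 in the other lists, beside 1.89% of all genes. Among 8 related superoxide dismutases and peroxidases 4 were tested and 2 were above 0 in all libraries, with a median difference of 0.08 in RPM over these 2. Ccs, the copper chaperone that loads Sod1, had 21.2, 21.6 and 21.0 RPM in the knock-out libraries and 14.7, 18.1 and 21.5 in the wild-type libraries (limma adjusted p = 0.941 on RPKM). Gpx3, the plasma glutathione peroxidase, had 7.33, 7.95 and 6.43 in the knock-out libraries and 10.2, 7.61 and 5.76 in the wild-type libraries (limma adjusted p = 1.0). The extracellular Sod3 had 2 reads in wild-type replicate 2 and 0 elsewhere, and Gpx6 was at 0 throughout, while Prdx4, a peroxiredoxin of the secretory pathway, had 2150, 0 and 2478 reads in the knock-out libraries and 0, 2858 and 2430 in the wild-type libraries.

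Of 18 genes of thioredoxin, glutaredoxin and glutathione recycling 17 were tested and 6 were above 0 in all libraries. The median difference over these 6 was -0.17 in RPM and -0.03 without wild-type replicate 1. Txnrd1 averaged 705 ± 151 RPM in the knock-out libraries, against 926 ± 279 RPM in the wild-type ones (SD, n = 3 each; limma adjusted p = 0.954). Glrx3, a glutaredoxin that handles iron-sulfur clusters, averaged 219 ± 18.2 RPM in the knock-out libraries, against 208 ± 32.9 RPM in the wild-type ones, although its RPKM were lower in knock-out, at 119.8 ± 26.5 against 156 ± 36.6 (SD, n = 3 each; limma adjusted p = 0.941). Gsr, glutathione reductase, had 8017, 9016 and 9927 reads in the knock-out libraries and 0, 9688 and 10828 in the wild-type libraries.

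Of 17 oxidases that make hydrogen peroxide 12 were tested, and the median difference over the 5 above 0 in all libraries was -0.02 in RPM. Pipox, which oxidises pipecolic acid and was named after its values were seen, had 684, 616 and 732 reads in the knock-out libraries and 0, 652 and 0 in the wild-type libraries (limma on RPKM, unadjusted p = 0.0391, adjusted p = 0.941). In RPM the limma unadjusted p of Pipox was 0.0653. Qsox1, a sulfhydryl oxidase of the secretory pathway, averaged 399 ± 33.2 RPM in the knock-out libraries, against 345 ± 75.8 RPM in the wild-type ones, and Ero1l, which drives disulfide formation in the endoplasmic reticulum, 48.8 ± 4.66 RPM in the knock-out libraries, against 52.4 ± 8.63 RPM in the wild-type ones (SD, n = 3 each). Of 15 genes of peroxisome assembly, all tested, 4 were above 0 in all libraries, with a median difference of 0.07 in RPM. Pex10, a ubiquitin ligase of the peroxisomal membrane, averaged 7.12 ± 1.32 RPM in the knock-out libraries, against 7.65 ± 2.33 RPM in the wild-type ones (SD, n = 3 each; limma adjusted p in RPM = 1.0). Of the 9 genes of selenoprotein synthesis and transport that were tested, 3 were above 0 in all libraries, with a median difference of 0.06 in RPM. Pstk, a kinase that acts on the selenocysteine transfer RNA, averaged 33.5 ± 5.02 RPM in the knock-out libraries, against 32.3 ± 6.93 RPM in the wild-type ones, and Selenop 2079 ± 497 RPM in the knock-out libraries, against 1750 ± 949 RPM in the wild-type ones (SD, n = 3 each).

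By the root mean square difference from the mean centred log2(RPKM + 1) profile of the 7 enzyme genes over 6 libraries, the most alike genes were Cactin (0.0307), Fadd (0.0352) and Pdcd7 (0.0359). That mean profile was at -0.03, -0.07 and -0.06 in knock-out replicates 1 to 3 and at 0.21, 0.01 and -0.05 in wild-type replicates 1 to 3. Wild-type replicate 1 was the highest point of that profile, and the other 5 libraries lay close to 0. The profile is a mean over genes that moved in opposite directions in wild-type replicate 1. Sod2, Prdx1 and Prdx5 were high there and Gpx1 and Prdx3 low, so likeness to the mean is not likeness to each enzyme gene. Cactin measured 10.6, 9.6 and 9.65 RPKM in the knock-out libraries and 12.1, 10.4 and 9.94 in the wild-type libraries.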

How the data were processed

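Per the submitters' processing notes, alignment used TopHat2 (version 2) and GRCm38 (mm10). The sources used here do not give the tool that assigned reads to transcripts or whether it used strand. The deposited files, 1 per library, give estimated read counts and RPKM for 118492 transcripts, as text attributes, per the file headers. Per locus, estimated reads summed to a whole number (within 0.001) at 99.46% to 99.66% of loci with reads. The deposited RPKM match library totals of 19245556 to 21899881 reads, below the totals of estimated reads.

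Reads and RPKM were summed per gene. Symbols were matched to 47993 of 48353 genes, and 360 were not matched. Transcript kinds came from GENCODE M21. Where the mean RPKM was at least 1 (11021 genes), log2(RPKM + 1) was tested with limma 3.58.1 in R 4.3.3 (eBayes with trend, two-sided, no covariate, all 6 libraries), and genes were called at a Benjamini-Hochberg adjusted p below 0.05. RPM were fitted in the same way. Genes with an exact 0 have no mean, SD or fold. Differences on these scales understate changes of low genes. The scripts were tested on simulated data. Tables and figures used Python 3.11.15, pandas 2.3.3, numpy 2.4.6 and matplotlib 3.10.9.

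The members, lists and tests were chosen with earlier results of these data known. Named genes were the 10 enzymes, Bcl2l11, members of each pathway list past the test or, with none, its 2 members of smallest p above 0 in all libraries, the markers, and the 3 genes of most alike profile. Others, such as those given for a 0 in some library, were named after their values were seen. Of the genes the rule names, 1 is not reported here. RPM fits without wild-type replicate 1, with genes above 0 only, and with zeros as missing were chosen after seeing the data.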

Additional observations from a re-analysis of the deposited data

How the results depend on the processing

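The count of 0 called among the 10 enzyme genes held under each alternative tried: another pseudocount (0.1), filter, scaling, transcript choice, variance model, voom, treatment of zeros, threshold (0.1), replicate block and each left-out library. The 87 calls over all genes became 0 with genes above 0 in all libraries (by limma, 130 at an unadjusted p below 0.05), 0 with zeros as missing (390), and 0 in both those settings on RPM (70 and 208). With the replicate block there were 0 (198 at an unadjusted p below 0.05). Whether the replicate numbers pair the samples is not stated. The correlation of deviations was -0.158, -0.049 and -0.005 for equal replicate numbers 1, 2 and 3. For unequal numbers it ranged from -0.271 to 0.312, so these values cannot settle whether samples were paired. Without 1 library the calls over all genes ranged from 182 to 207, and on RPM without wild-type replicate 1 they were 230, or 0 with genes above 0 (80 at an unadjusted p below 0.05). With a library left out, peroxisome assembly had 0 to 1 calls (Pex19, without knock-out replicate 1) and the oxidases 0 to 1 (Pipox, without wild-type replicate 2). Both genes were named after their values were seen, and in both calls every library left in 1 group was at exact 0. Pex19 had 3070, 0 and 0 reads in the knock-out libraries and 2370, 3094 and 3060 in the wild-type libraries. Pipox had 0, 652 and 0 reads in the wild-type libraries.

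Of 154 alternative values of the 7 enzyme differences 141 kept their direction, 13 changed sign and 0 passed the threshold. With 1 transcript per gene Gpx1 was at -6.32, Pex10 at 0.53 and Pstk at 0.352, and without a change of sign Cat moved to 2.49 (0.074 over summed transcripts), Prdx1 to -4.339 (-0.861), Glrx3 to -2.692 (-0.381) and Qsox1 to 0.645 (0.182). In that setting the value follows the transcript that was kept. Quantile normalization turned Gpx3 to 0.093. Glrx3 was at 0.08 in RPM, also with genes above 0 or zeros as missing, and 0.083 with voom. Pstk was at 0.06 in RPM, in the same settings, and 0.066 with voom. In RPM without wild-type replicate 1, also with genes above 0 only, the differences that changed sign were 0.099 for Sod2, 0.014 for Prdx1, -0.02 for Prdx3, 0.107 for Gpx3, 0.081 for Glrx3, 0.02 for Ero1l, 0.136 for Pex10, 0.2 for Pstk and -0.137 for Selenop. On RPKM with 1 library left out at a time the differences ranged from -0.025 to 0.062 for Sod1, -0.418 to 0.07 for Sod2, -0.195 to 0.257 for Cat, -0.036 to 0.551 for Gpx1, -1.261 to -0.403 for Prdx1, -0.047 to 0.305 for Prdx3, -0.419 to -0.036 for Prdx5, -0.266 to 0.081 for Gpx3, -0.014 to 0.341 for Qsox1 and -0.165 to 0.797 for Selenop. The values of Prdx1 and Prdx5 nearest 0 were those without wild-type replicate 1. Without a change of sign the differences ranged from 0.08 to 0.355 for Ccs, -0.525 to -0.166 for Txnrd1, -0.532 to -0.197 for Glrx3, -0.197 to -0.007 for Ero1l, -0.555 to -0.161 for Pex10 and -0.925 to -0.054 for Pstk. The cause was not tested. In RPM without wild-type replicate 1 the SE depended on which genes were fitted. With genes above 0 only it was 0.12 for Prdx5, 0.127 for Sod2, 0.126 for Prdx3, 0.128 for Sod1 and 0.14 for Gpx1. Over all tested genes these were 0.048, 0.068, 0.073, 0.081 and 0.099. For Prdx1 it was 0.2 against 0.198, and for Cat 0.186 against 0.193. With 3 libraries a group, the intervals given above show differences that these libraries do not exclude. They are not adjusted for the number of genes tested and are not limits of detection, so a larger change could also go uncalled. Genes with a mean below 1 RPKM were outside what was tested.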
